A study of Mus musculus with 8 samples.

Results

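The 102 genes described here build and use microtubules. They are the genes measured by a probe set that lists exactly 1 gene symbol, where that symbol starts with Cep or Kif followed by a digit, or with Tuba, Tubb, Tubg or Haus. They are 102 of the 18194 genes with such a probe set on the array, and 229 probe sets measure them. Where a gene had several, the one brightest on average over all 8 arrays stands for it. Most of the 8 arrays are mutant, so the choice leans towards probe sets that stay bright in the mutants. There are 37 Cep genes (centrosomal proteins), 8 Haus genes (subunits of augmin), 7 Tubg and Tubgcp genes (gamma-tubulin and its ring complex), 4 Tuba and 9 Tubb genes (alpha- and beta-tubulins) and 37 Kif genes (kinesin motors). Of these, 92 reached a log2 level of 4 (an intensity of 16) on at least 2 arrays and were tested. The other 10 did not: Kif12, Kif14, Kif15, Kif26b, Kif28, Tuba3b, Tubb1, Tubb2a-ps2, Tubb4a and Tubg2.

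Testis RNA came from 28-day-old mice on a mixed background of C57BL6/6J and 129, and each of 8 samples was hybridised to its own 1-colour array. Every mouse carried 2 floxed copies of Dmrt1, the gene of a transcription factor of Sertoli and germ cells. Cre recombinase was driven by the promoter of Sf1 (Nr5a1) in 4 samples and by that of Dhh in 2 samples, and 2 controls of the same floxed genotype carried no Cre. The submitters call both drivers specific to Sertoli cells, the somatic cells that nurse the germ cells, and number the samples as biological replicates. The design asks what changes in the testis when Dmrt1 is deleted with either driver.

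Microtubules are hollow tubes of alpha- and beta-tubulin, nucleated by ring complexes of gamma-tubulin. Augmin starts new microtubules from the sides of existing ones. Centrosomal proteins build the centrioles, which organise the spindle and, as basal bodies, carry cilia and the sperm tail, and kinesins walk on microtubules with cargo, push spindles apart or shorten filament ends. In the testis, microtubules form the meiotic spindles of spermatocytes. In spermatids they form the axoneme of the tail and the manchette, a skirt of microtubules that shapes the sperm head, and in Sertoli cells they run along the tall cell body and move elongating spermatids.

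Dmrt1 itself had intensities of 137, 237, 198 and 185 on the Sf1-Cre arrays, 1377 and 979 on the arrays labelled Dhh-Cre, and 361 and 433 on the control arrays. With this single probe set it was thus lower in Sf1-Cre but higher, not lower, on the arrays labelled Dhh-Cre. The label is therefore quoted throughout. Germ cells express Dmrt1 too and whole testes were measured, so its level cannot show whether Sertoli cells lost it. Its log2 fold change against control was -1.09 ± 0.25 SE in Sf1-Cre (limma adjusted p = 0.00375) and 1.55 ± 0.28 SE for Dhh-Cre (limma adjusted p = 0.0012). Spermatogonia markers summed to 3379 to 4705 in Sf1-Cre, 7513 and 7811 for Dhh-Cre, and 3827 and 3843 in control testes. For Dhh-Cre 4 of the 10 tested were higher and 2 lower, against 49.1% and 30.5% of all genes. Their part in the Dmrt1 level was not tested. The epididymal gene Spink8 was above a log2 level of 10 on 3 arrays (Sf1-Cre 1, Sf1-Cre 3 and Dhh-Cre 1), and counts are given with and without them. The ratio of the Actb probe sets at the 3′ and 5′ ends, a sign of RNA quality, was 9.45 to 13.6 on the mutant arrays, against 4.89 and 4.44 on the control arrays, and its part in the results was not tested. Spermatid markers summed to intensities of 3529 to 13506 on the Sf1-Cre arrays, 2166 and 13733 on the arrays labelled Dhh-Cre, and 107724 and 98085 on the control arrays, and all 20 were above the floor in the controls. All 11 macrophage markers were higher in both lines, and their sum was 32024 to 36199 in Sf1-Cre, 26212 and 25929.7 for Dhh-Cre, and 5191 and 5523 in control testes. Of the Sertoli markers only Amh stayed under the floor on every array. Because whole testes were measured, fewer cells of a type and less RNA per cell cannot be told apart.

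The promoters of 4 members with large changes are shown as examples and do not stand for the members as a whole. Short motifs bound by germ-cell and cilium regulators were searched in them. They run from 250 bases before to 50 bases after the annotated start and come from RefSeq (GRCm38.p6), which holds a promoter for 85 of the 102 members. Capitals mark the full cAMP response element TGACGTCA and the RFX core GTTGCC, which was also read on the other strand as GGCAAC. Kif17 (chr4:138262001-138262300, plus strand) holds both. Tuba8 (chr6:121210484-121210783, plus strand) and Kif9 (chr9:110476708-110477007, plus strand) hold only the RFX core. Kif1c (chr11:70700298-70700597, plus strand), the member that rose most, holds neither. Neither is held by the promoters of Cep162, Cep126, Cep290 and Haus4, which fell in both lines.
Kif17: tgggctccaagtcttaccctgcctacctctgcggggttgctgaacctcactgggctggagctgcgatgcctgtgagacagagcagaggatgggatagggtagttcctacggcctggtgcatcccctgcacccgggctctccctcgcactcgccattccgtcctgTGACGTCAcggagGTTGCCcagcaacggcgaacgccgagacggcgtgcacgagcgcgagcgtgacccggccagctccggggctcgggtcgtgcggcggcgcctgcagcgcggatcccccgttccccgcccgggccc
Tuba8: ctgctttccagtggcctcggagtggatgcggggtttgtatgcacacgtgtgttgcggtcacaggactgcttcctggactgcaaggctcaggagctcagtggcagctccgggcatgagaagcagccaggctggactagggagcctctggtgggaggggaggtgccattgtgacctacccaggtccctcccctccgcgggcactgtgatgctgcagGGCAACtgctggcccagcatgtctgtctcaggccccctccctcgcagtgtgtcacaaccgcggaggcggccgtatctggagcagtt
Kif9: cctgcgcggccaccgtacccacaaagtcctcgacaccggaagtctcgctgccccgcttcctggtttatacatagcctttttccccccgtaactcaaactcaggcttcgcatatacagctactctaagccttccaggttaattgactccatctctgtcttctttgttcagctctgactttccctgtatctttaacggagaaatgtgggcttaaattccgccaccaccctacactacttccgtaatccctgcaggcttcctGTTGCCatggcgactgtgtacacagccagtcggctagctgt
Kif1c: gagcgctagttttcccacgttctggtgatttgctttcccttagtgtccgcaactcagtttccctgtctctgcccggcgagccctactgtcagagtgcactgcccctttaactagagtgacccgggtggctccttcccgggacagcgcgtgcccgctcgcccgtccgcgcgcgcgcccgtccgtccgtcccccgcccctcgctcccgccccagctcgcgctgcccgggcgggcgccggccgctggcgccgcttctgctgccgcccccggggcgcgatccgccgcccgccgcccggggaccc
GTTGCC, searched on both strands, stood in 22.4% of the 85 member promoters and in 12.7% of all 27025 promoters of the table. It was present in 11 of the 36 promoters of members that were lower in both Cre lines (30.6%) and in 0 of the 12 of members that were higher in both. TGACGTCA stood in 7.06% of member promoters against 1.88% of all, in 3 of the 36 and in 1 of the 12. CCAAT stood in 47.1% of member promoters against 37.9% of all. These are letter matches in a 300-base window and were not tested.

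In the Sf1-Cre testes most of the centrosome and kinesin genes were lower than in the controls, while a smaller group of kinesins and tubulins was higher. Among the 92 tested members, 18 passed as higher, 51 as lower and 23 did not pass (limma, adjusted p under 0.05 over all 13802 genes tested). Over all genes 46.6% passed as higher and 33.2% as lower, so the share of members that fell was above the background and the share that rose below it. The median log2 fold change was -0.83 over the tested members and 0.34 over all tested genes. On the arrays labelled Dhh-Cre, 23 members passed as higher, 44 as lower and 25 did not pass, against 49.1% higher and 30.5% lower over all genes. There the members' median was -0.68 and that of all genes 0.54. Beside these falls, 20 of 20 spermatid markers were lower in Sf1-Cre and 19 of 20 for Dhh-Cre, and 16 and 14 of 20 spermatocyte markers, and their part in the members' falls was not tested. Without the 3 arrays with high Spink8 the counts were 14 higher and 50 lower in Sf1-Cre, and 19 and 41 for Dhh-Cre. All but 1 of the tested members, Kif13a, had a control mean at or above the floor.

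The number of rises depended on the scaling of the arrays. Shifting each array by the median difference of 13 housekeeping genes moved the median of all genes to -0.53 in Sf1-Cre and -0.33 for Dhh-Cre. It left 6 members higher in Sf1-Cre and 12 higher for Dhh-Cre, beside 3759 and 4028 of all 13802 genes. Centring on the median level of those housekeeping genes moved the medians to -1.36 and -1.16 and left 4 members higher in each line. Over all genes 2043 and 2014 then passed as higher, against 6434 and 6781 with the deposited scaling. Kif1c and Kif13a stayed higher in both lines under both scalings, Kif5a and Tubb2b did so in Sf1-Cre, and Tubb3 and Tubb5 for Dhh-Cre. A rise named below is relative to the deposited scaling. Of the 18 members that rose in Sf1-Cre, 13 changed sign with the centring and 6 with the differences. Of the 23 that rose for Dhh-Cre, 14 and 4 did.

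**Figure D1:**
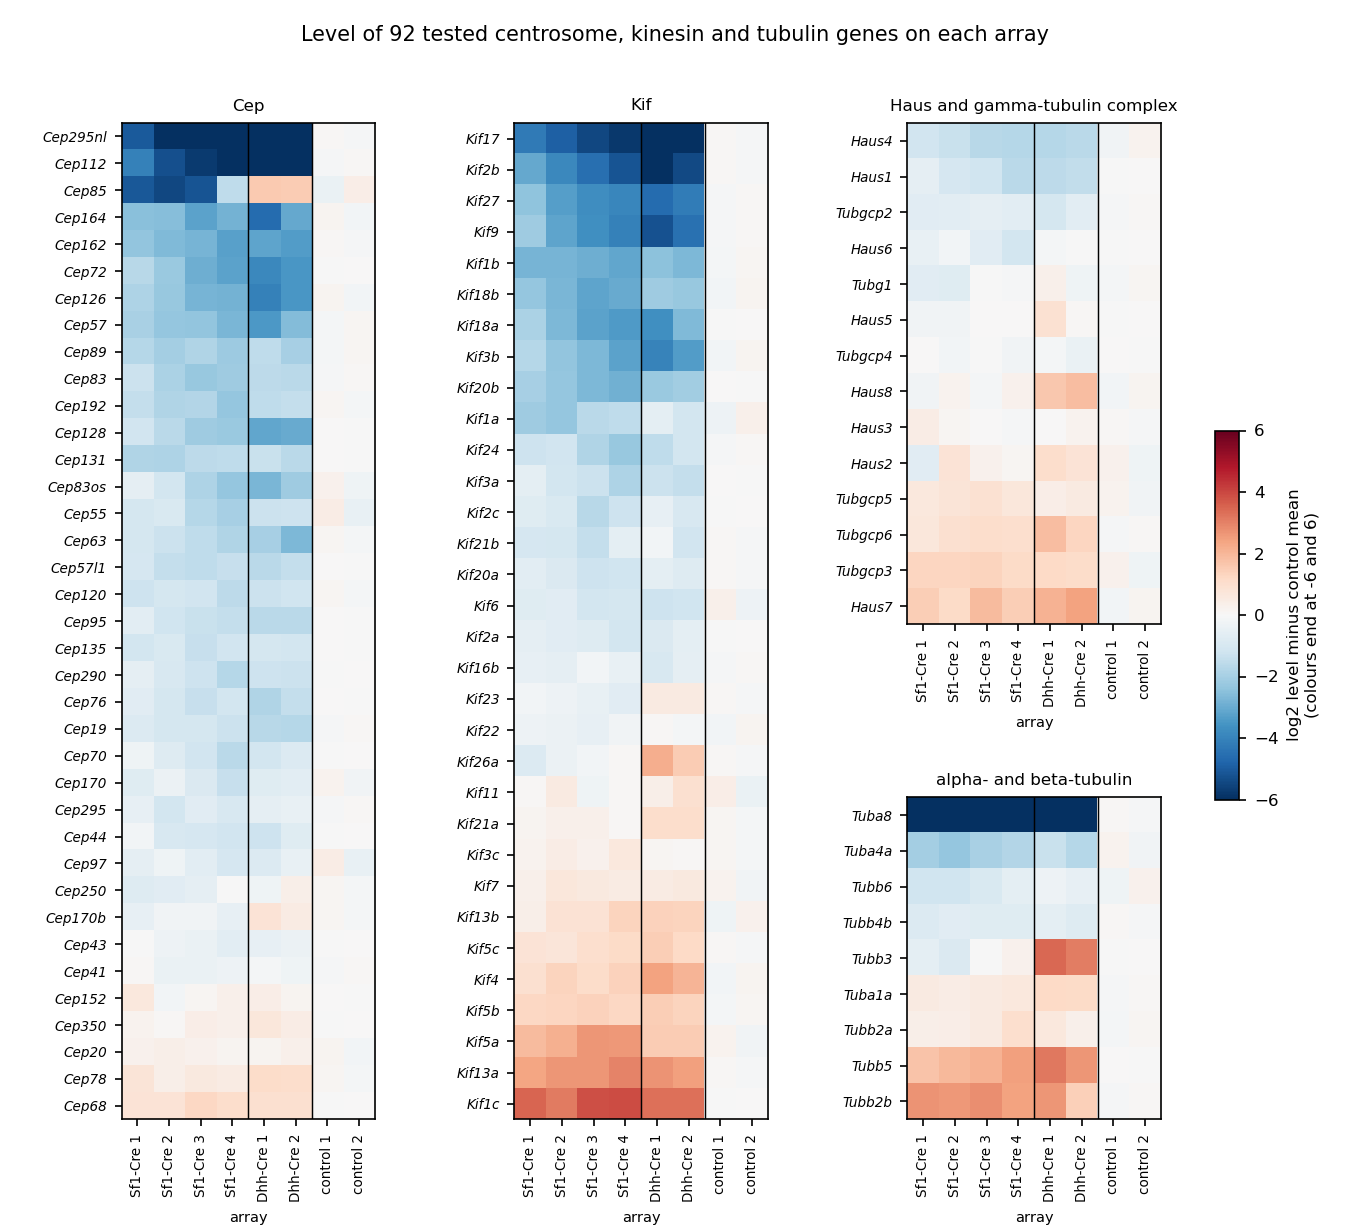
Each column is 1 array and each row 1 of the 92 tested genes, ordered within its panel by the log2 fold change in Sf1-Cre. Haus and Tubg genes share a panel, as do Tuba and Tubb genes. Colours give the log2 level minus the control mean (blue lower, red higher, ending at -6 and 6). Tuba8, Cep112, Cep295nl and Kif17 are deep blue on all 6 mutant arrays, Kif1c is red on all 6, and Tubb3 and Cep85 differ between the Sf1-Cre arrays and those labelled Dhh-Cre.

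The tubulins moved in opposite directions. Tuba8, a divergent alpha-tubulin found in testis and muscle, had log2 levels of 4.21, 3.64, 3.56 and 3.37 on the Sf1-Cre arrays, 3.89 and 4.98 on the arrays labelled Dhh-Cre, and 11.71 and 11.54 on the control arrays. All 6 mutant arrays were far below both controls and near or under the floor. Its log2 fold change was -7.93 ± 0.33 SE in Sf1-Cre (at least 190.2-fold lower, limma adjusted p = 7.32e-07) and -7.18 ± 0.38 SE for Dhh-Cre (145-fold lower, limma adjusted p = 3.59e-06). This was the largest fall among the members in Sf1-Cre.

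Tuba4a, an alpha-tubulin whose gene does not encode the C-terminal tyrosine, had levels of 10.64, 10.31, 10.69 and 10.90 on the Sf1-Cre arrays, 11.31 and 10.96 on the arrays labelled Dhh-Cre, and 12.84 and 12.47 on the control arrays. It fell in both lines and was 4.06-fold lower in Sf1-Cre (limma adjusted p = 5.09e-05) and 2.86-fold lower for Dhh-Cre (limma adjusted p = 0.000546), with no overlap between mutant and control arrays. Tuba1a, a broadly expressed alpha-tubulin, had levels of 12.72, 12.62, 12.70 and 12.82 on the Sf1-Cre arrays, 13.37 and 13.33 on the arrays labelled Dhh-Cre, and 12.11 and 12.23 on the control arrays. Its change was 0.55 ± 0.13 SE in Sf1-Cre (limma adjusted p = 0.00457) and 1.18 ± 0.15 SE for Dhh-Cre (limma adjusted p = 0.00015), but -0.32 and 0.32 with the housekeeping differences and -1.15 and -0.52 with housekeeping centring. The Tuba1a probe set belongs to a class that the array design marks as matching more than 1 sequence, and near-identical alpha-tubulin genes cannot be told apart by it with certainty. Tuba3b, a testis alpha-tubulin, stayed under the floor on every array with its own probe set.

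Among the beta-tubulins, Tubb5 and Tubb2b rose and Tubb4b fell in both lines. Tubb5, a beta-tubulin of many dividing cells, had levels of 9.81, 10.01, 10.18 and 10.53 on the Sf1-Cre arrays, 11.25 and 10.75 on the arrays labelled Dhh-Cre, and 8.10 and 8.05 on the control arrays. It was 4.15-fold higher in Sf1-Cre (2.05 ± 0.23 SE, limma adjusted p = 8e-05) and 7.57-fold higher for Dhh-Cre (2.92 ± 0.26 SE, limma adjusted p = 2.98e-05), and its second probe set also rose in both (2.60 and 3.69). Tubb2b, best known from developing neurons, had levels of 9.19, 9.08, 9.25 and 8.89 on the Sf1-Cre arrays, 9.11 and 7.90 on the arrays labelled Dhh-Cre, and 6.39 and 6.55 on the control arrays. It was 6.19-fold higher in Sf1-Cre (limma adjusted p = 9.76e-05) and 4.09-fold higher for Dhh-Cre (limma adjusted p = 0.000898), where the array Dhh-Cre 2 was closest to the controls. Tubb4b, a beta-tubulin used in cilia and tails as well as in other cells, had levels of 11.22, 11.37, 11.29 and 11.29 on the Sf1-Cre arrays, 11.45 and 11.25 on the arrays labelled Dhh-Cre, and 12.09 and 11.97 on the control arrays. Its fall was small, -0.74 ± 0.13 SE in Sf1-Cre (limma adjusted p = 0.0011) and -0.68 ± 0.15 SE for Dhh-Cre (limma adjusted p = 0.00364), yet no mutant array reached a control.

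Tubb3 separated the 2 mutant groups. This beta-tubulin, best known from neurons and also found in Sertoli cells, had levels of 6.05, 5.74, 6.59 and 6.90 on the Sf1-Cre arrays, 10.08 and 9.69 on the arrays labelled Dhh-Cre, and 6.61 and 6.65 on the control arrays. The Sf1-Cre arrays lay around the controls and both arrays labelled Dhh-Cre lay far above them. The log2 fold change was -0.31 ± 0.32 SE in Sf1-Cre (limma adjusted p = 0.386), 3.25 ± 0.37 SE for Dhh-Cre against control (9.52-fold higher, limma adjusted p = 8.61e-05) and -3.56 ± 0.32 SE in Sf1-Cre against Dhh-Cre (11.8-fold lower, limma adjusted p = 0.000463). The Sertoli marker sum was 18076 to 20282 in Sf1-Cre, 31921 and 33979 for Dhh-Cre, and 18088 and 18775 in control testes, and their part in the Tubb3 difference was not tested. Tubb6 fell in Sf1-Cre (-0.98 ± 0.23 SE, limma adjusted p = 0.00419) and was -0.38 ± 0.26 SE for Dhh-Cre, which did not pass. Tubb2a was 0.57 ± 0.22 SE in Sf1-Cre with limma adjusted p = 0.0429, and it lost that call in 8 of 19 alternatives and turned negative under both housekeeping scalings.

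The gamma-tubulin ring complex showed rises of 3 subunits in Sf1-Cre and a fall of 1, among 6 tested genes of the family. These shares, 50% and 16.7%, stood beside 46.6% and 33.2% of all genes. Tubgcp3, a core subunit of the ring, had levels of 5.93, 5.95, 6.00 and 5.79 on the Sf1-Cre arrays, 5.82 and 5.76 on the arrays labelled Dhh-Cre, and 4.88 and 4.41 on the control arrays. It was 2.42-fold higher in Sf1-Cre (limma adjusted p = 0.000177) and 2.22-fold higher for Dhh-Cre (limma adjusted p = 0.000676), while housekeeping centring turned the log2 values to -0.42 and -0.54. Tubgcp6 had levels of 5.13, 5.42, 5.49 and 5.43 on the Sf1-Cre arrays, 6.30 and 5.75 on the arrays labelled Dhh-Cre, and 4.36 and 4.53 on the control arrays. Its log2 fold change was 0.92 ± 0.19 SE in Sf1-Cre (limma adjusted p = 0.00251) and 1.58 ± 0.22 SE for Dhh-Cre (limma adjusted p = 0.000284), and -0.77 and -0.11 with housekeeping centring. Tubgcp5 was 0.75 ± 0.17 SE in Sf1-Cre (limma adjusted p = 0.00347), but negative in both lines under both housekeeping scalings. Tubgcp2 fell in both lines, by 0.62 and 0.84 on the log2 scale, but did not pass in Sf1-Cre without control 2 (limma adjusted p = 0.0564) or for Dhh-Cre without the arrays with high Spink8 (limma adjusted p = 0.0638). Tubg1, the main gamma-tubulin, had values of -0.37 ± 0.26 SE and 0.02 ± 0.30 SE and Tubgcp4 of -0.09 ± 0.14 SE and -0.25 ± 0.17 SE in Sf1-Cre and for Dhh-Cre, and neither passed. Tubg2 stayed under the floor on every array.

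The augmin genes did not move as a block. Haus4 had levels of 8.36, 8.14, 7.81 and 7.77 on the Sf1-Cre arrays, 7.76 and 7.86 on the arrays labelled Dhh-Cre, and 9.29 and 9.69 on the control arrays. Haus1 and Haus4 fell in both lines, Haus4 with -1.47 ± 0.21 SE in Sf1-Cre (limma adjusted p = 0.000321) and -1.68 ± 0.24 SE for Dhh-Cre, and Haus1 with -1.09 ± 0.27 SE and -1.54 ± 0.31 SE. Haus7, on the X chromosome, had levels of 10.36, 10.04, 10.77 and 10.35 on the Sf1-Cre arrays, 10.99 and 11.30 on the arrays labelled Dhh-Cre, and 8.73 and 9.04 on the control arrays. It was 2.82-fold higher in Sf1-Cre (limma adjusted p = 0.00039) and 4.78-fold higher for Dhh-Cre (limma adjusted p = 8.8e-05), though -0.20 on the log2 scale in Sf1-Cre with housekeeping centring. Haus8 had levels of 6.22, 6.61, 6.30 and 6.69 on the Sf1-Cre arrays, 8.02 and 8.27 on the arrays labelled Dhh-Cre, and 6.24 and 6.59 on the control arrays. Like Tubb3 it was near the controls in Sf1-Cre (0.042 ± 0.20 SE) and 3.33-fold higher for Dhh-Cre (limma adjusted p = 0.000187). Haus3, Haus5 and Haus6 passed in neither line, and Haus2 is taken up with the genes whose probe sets disagree.

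The Cep genes were the family with the most falls: 27 of 37 fell and 2 rose in Sf1-Cre (median -1.16), and 23 fell and 4 rose for Dhh-Cre (median -1.28). Among all genes 33.2% fell and 46.6% rose in Sf1-Cre, and 30.5% fell and 49.1% rose for Dhh-Cre. The 2 risers of Sf1-Cre, Cep68 and Cep78, had values of 0.98 ± 0.16 SE and 0.56 ± 0.16 SE there and turned to -0.71 and -1.14 with housekeeping centring, which also turned both for Dhh-Cre. Cep78 was -0.31 in Sf1-Cre with the housekeeping differences as well. With the housekeeping differences 35 Cep genes passed as lower in Sf1-Cre and 0 as higher, and 31 passed as lower for Dhh-Cre. Under that scaling 6997 of all 13802 genes passed as lower in Sf1-Cre and 6111 for Dhh-Cre. Cep295nl, named for its likeness to the N-terminal part of Cep295, had levels of 6.93, 5.92, 5.57 and 5.28 on the Sf1-Cre arrays, 4.18 and 5.30 on the arrays labelled Dhh-Cre, and 12.06 and 11.90 on the control arrays. It was 66.5-fold lower in Sf1-Cre (limma adjusted p = 1.24e-05) and 151-fold lower for Dhh-Cre (limma adjusted p = 1.34e-05). Cep112, a coiled-coil protein of the centrosome, had levels of 8.08, 6.86, 6.41 and 5.29 on the Sf1-Cre arrays, 3.71 and 5.99 on the arrays labelled Dhh-Cre, and 12.10 and 12.19 on the control arrays. The mutant arrays differed widely among themselves, 8.08 being the highest and 3.71 the lowest. The log2 fold change was -5.49 ± 0.81 SE in Sf1-Cre (limma adjusted p = 0.000387) and -7.30 ± 0.93 SE for Dhh-Cre (limma adjusted p = 0.000172). Cep295 itself had -0.82 ± 0.19 SE in Sf1-Cre and -0.48 ± 0.22 SE for Dhh-Cre, but its probe sets differed in sign in both lines.

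Of the 9 Cep genes of centriole duplication, 7 fell and 0 rose in Sf1-Cre (median -1.26), and 5 fell and 0 rose for Dhh-Cre (median -1.07). The shares over all genes were 33.2% lower and 46.6% higher in Sf1-Cre, and 30.5% and 49.1% for Dhh-Cre. Cep192, which gathers Plk4 and pericentriolar material around the centriole, was -1.82 ± 0.24 SE in Sf1-Cre and -1.46 ± 0.27 SE for Dhh-Cre. Cep57 and Cep63, which form a platform for Cep152 on the mother centriole, fell by 2.34 and 1.41 on the log2 scale in Sf1-Cre and by 3.02 and 2.35 for Dhh-Cre. Cep152 was 0.22 ± 0.22 SE and 0.29 ± 0.26 SE and did not pass in either. Cep135, a cartwheel protein, was at least 1.4-fold lower in both lines, its mutant means lying under the floor.

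Of the 11 measured Cep genes of the distal centriole and cilium base, 7 fell and 1 rose in Sf1-Cre (median -1.11), and 7 fell and 2 rose for Dhh-Cre (median -1.61). All genes together gave 33.2% lower and 46.6% higher in Sf1-Cre, and 30.5% and 49.1% for Dhh-Cre. Cep164, Cep83 and Cep89 belong to the distal appendages that dock the basal body to the membrane, and Cep162 and Cep290 to the transition zone above it. Cep164 was -2.78 ± 0.40 SE in Sf1-Cre and -3.85 ± 0.46 SE for Dhh-Cre, and Cep162 was -2.76 ± 0.24 SE and -3.27 ± 0.28 SE. The probe sets of Cep162 differed in size in Sf1-Cre and in sign for Dhh-Cre, and those of Cep164 in size for Dhh-Cre. Cep290 had levels of 10.68, 10.25, 9.99 and 9.54 on the Sf1-Cre arrays, 9.99 and 9.95 on the arrays labelled Dhh-Cre, and 11.20 and 11.26 on the control arrays. Its fall was -1.11 ± 0.28 SE in Sf1-Cre (limma adjusted p = 0.00704) and -1.26 ± 0.33 SE for Dhh-Cre (limma adjusted p = 0.00772). Cep126, a protein of the centrosome and cilium base, had levels of 5.66, 5.24, 4.71 and 4.64 on the Sf1-Cre arrays, 3.43 and 4.01 on the arrays labelled Dhh-Cre, and 7.68 and 7.32 on the control arrays. It fell 5.43-fold in Sf1-Cre (limma adjusted p = 0.000197) and at least 11.3-fold for Dhh-Cre (limma adjusted p = 4.29e-05), and the lines differed from each other. Multiciliated cell markers were lower for 5 of 7 tested genes in Sf1-Cre and 4 of 7 for Dhh-Cre, with 1 rise in each, and their part in these falls was not tested.

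Cep55, which in dividing cells acts in the final cut between daughters and in germ cells sits in the bridges between sister cells, had levels of 8.29, 8.42, 7.63 and 7.35 on the Sf1-Cre arrays, 8.04 and 8.08 on the arrays labelled Dhh-Cre, and 9.78 and 8.89 on the control arrays. It fell in Sf1-Cre (-1.41 ± 0.36 SE, limma adjusted p = 0.00698) and for Dhh-Cre (-1.28 ± 0.41 SE, limma adjusted p = 0.0214), but without control 1 the adjusted p was 0.0784 and 0.146. Cep85, which acts on centriole duplication through Plk4, had levels of 3.26, 2.85, 3.15 and 6.81 on the Sf1-Cre arrays, 9.92 and 9.87 on the arrays labelled Dhh-Cre, and 7.92 and 8.74 on the control arrays. Sf1-Cre 4 stood apart from the other Sf1-Cre arrays, which were under the floor, and both arrays labelled Dhh-Cre were above the controls. The Sf1-Cre value was -4.31 ± 1.03 SE (limma adjusted p = 0.00513), where the group mean of 4.02 reached the floor only through Sf1-Cre 4, and the value was -3.63 with levels under the floor set to it. The Dhh-Cre value was 1.56 ± 1.19 SE, which did not pass (limma adjusted p = 0.254). It passed without Sf1-Cre 4, which adds to the shared spread (limma adjusted p = 0.00169), and in 2 further alternatives. The other Cep85 probe set gave -0.95 ± 0.30 SE and -0.76 ± 0.34 SE and no difference that passed between the lines (-0.19 ± 0.30 SE). Cep83 and Cep83os, whose name marks a transcript on the opposite strand of Cep83, were both lower, and whether their probe sets tell the strands apart was not tested.

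Kinesins that act in dividing cells included more falls than rises. Of 9 tested genes of this group, 5 fell and 1 rose in Sf1-Cre (median -0.97), and 4 fell and 2 rose for Dhh-Cre (median -0.68). Over all genes 33.2% fell and 46.6% rose in Sf1-Cre, and 30.5% fell and 49.1% rose for Dhh-Cre. Kif18a and Kif18b, which shorten microtubule ends while chromosomes line up, were -2.80 ± 0.44 SE and -2.82 ± 0.25 SE in Sf1-Cre, and -3.17 ± 0.51 SE and -2.19 ± 0.29 SE for Dhh-Cre. Kif20a and Kif20b, motors of cytokinesis, fell by 0.97 and 2.47 on the log2 scale in Sf1-Cre. Kif4, a motor bound to chromosome arms and encoded on the X chromosome, had levels of 5.62, 5.97, 5.76 and 6.01 on the Sf1-Cre arrays, 7.07 and 6.70 on the arrays labelled Dhh-Cre, and 4.47 and 4.83 on the control arrays. It rose in both lines, 2.29-fold higher in Sf1-Cre (limma adjusted p = 0.000583) and 4.73-fold higher for Dhh-Cre (limma adjusted p = 4.33e-05), although in Sf1-Cre its log2 value turned to -0.50 with housekeeping centring and was 0.33, not past the threshold, with the housekeeping differences. Kif11, the motor that pushes spindle poles apart, was 0.11 ± 0.31 SE and 0.65 ± 0.35 SE in Sf1-Cre and for Dhh-Cre and passed in neither. Proliferation markers rose for 4 and fell for 5 of 13 genes in Sf1-Cre, and rose for 5 and fell for 3 for Dhh-Cre.

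Kif2b, a kinesin that shortens microtubule ends at spindle poles and kinetochores, had levels of 9.70, 8.89, 8.24 and 7.60 on the Sf1-Cre arrays, 3.67 and 7.36 on the arrays labelled Dhh-Cre, and 12.82 and 12.72 on the control arrays, so the arrays labelled Dhh-Cre lay far apart from each other. The log2 fold change was -4.16 ± 0.95 SE in Sf1-Cre (limma adjusted p = 0.00416) and -7.26 ± 1.10 SE for Dhh-Cre (limma adjusted p = 0.000438). Kif2a, its relative in many tissues, fell by 0.78 and 0.74 on the log2 scale.

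Of the 15 kinesins of cargo transport, 6 rose and 6 fell in Sf1-Cre (median 0.21), and 7 rose and 5 fell for Dhh-Cre (median 0.09). These shares are near those of all genes, of which 46.6% rose and 33.2% fell in Sf1-Cre and 49.1% rose and 30.5% fell for Dhh-Cre. Kif17, a motor of the kinesin-2 group that in mouse male germ cells moves a partner of the transcription factor CREM out of the nucleus, had levels of 6.74, 6.06, 5.50 and 5.18 on the Sf1-Cre arrays, 4.67 and 4.47 on the arrays labelled Dhh-Cre, and 11.05 and 10.91 on the control arrays. Every mutant array lay far below both controls, with Sf1-Cre 1 the nearest. The fall was -5.11 ± 0.39 SE in Sf1-Cre (34.6-fold lower, limma adjusted p = 1.1e-05) and -6.41 ± 0.45 SE for Dhh-Cre (85.2-fold lower, limma adjusted p = 9.94e-06), and its other probe sets fell too (-6.14 and -5.16 in Sf1-Cre). Kif3a and Kif3b, the motor pair of transport inside cilia, also fell with the probe set used for each. In both lines the probe sets of Kif3a differed in sign and those of Kif3b in size. Kif3a lost its call in 1 of 19 alternatives in each line. Kif3b was -2.51 ± 0.40 SE in Sf1-Cre (limma adjusted p = 0.00056) and -3.68 ± 0.46 SE for Dhh-Cre (limma adjusted p = 0.000147), and Kif3a was -1.21 ± 0.31 SE and -1.35 ± 0.35 SE. Kif3c, another relative, was 0.38 ± 0.16 SE and 0.087 ± 0.19 SE and did not pass.

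Kif1c, a motor of Golgi and vesicle traffic, had the largest rise of the members in both lines. It had levels of 8.71, 8.35, 9.08 and 9.13 on the Sf1-Cre arrays, 8.55 and 8.52 on the arrays labelled Dhh-Cre, and 5.20 and 5.26 on the control arrays. It was 12.1-fold higher in Sf1-Cre (3.59 ± 0.23 SE, limma adjusted p = 4.51e-06) and 9.89-fold higher for Dhh-Cre (3.31 ± 0.26 SE, limma adjusted p = 1.72e-05). Kif13a, which carries endosomes, had levels of 6.31, 6.57, 6.58 and 6.90 on the Sf1-Cre arrays, 6.62 and 6.40 on the arrays labelled Dhh-Cre, and 4.02 and 3.84 on the control arrays. Its control mean lay under the floor, so it was at least 5.98-fold higher in Sf1-Cre (limma adjusted p = 6.87e-06) and at least 5.65-fold higher for Dhh-Cre (limma adjusted p = 1.98e-05). Among the somatic marker lists in Sf1-Cre, 11 of 11 macrophage, 10 of 10 granulosa, 5 of 6 Leydig, 7 of 7 endothelial, 8 of 10 peritubular and 7 of 12 Sertoli genes were higher, while 1 peritubular and 3 Sertoli genes were lower, and their part in these rises was not tested. Over all genes 46.6% were higher and 33.2% lower in Sf1-Cre.

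All 3 heavy chains of conventional kinesin, Kif5a, Kif5b and Kif5c, rose in both lines with the probe set used for each, though another Kif5c probe set fell. Kif5a had levels of 7.49, 7.70, 8.23 and 8.19 on the Sf1-Cre arrays, 7.11 and 7.08 on the arrays labelled Dhh-Cre, and 5.76 and 5.39 on the control arrays. It was 5.02-fold higher in Sf1-Cre (limma adjusted p = 5.56e-05) and 2.88-fold higher for Dhh-Cre (limma adjusted p = 0.00127), though -0.17 on the log2 scale for Dhh-Cre with housekeeping centring. Kif5b, the form of most tissues, had levels of 10.51, 10.59, 10.69 and 10.55 on the Sf1-Cre arrays, 10.78 and 10.61 on the arrays labelled Dhh-Cre, and 9.17 and 9.42 on the control arrays. Its rise was 1.29 ± 0.14 SE in Sf1-Cre (limma adjusted p = 6.72e-05) and 1.40 ± 0.16 SE for Dhh-Cre (limma adjusted p = 9.82e-05), and -0.40 and -0.29 with housekeeping centring. Kif5c was 0.92 ± 0.17 SE and 1.34 ± 0.19 SE, with -0.78 and -0.36 under that centring and with probe sets that disagree. Kif26a, a kinesin without motor activity, had levels of 4.44, 4.94, 5.11 and 5.34 on the Sf1-Cre arrays, 7.47 and 6.82 on the arrays labelled Dhh-Cre, and 5.35 and 5.21 on the control arrays. It was near the controls in Sf1-Cre (-0.32 ± 0.28 SE, limma adjusted p = 0.31) and 3.64-fold higher for Dhh-Cre (limma adjusted p = 0.000894).

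Of the 5 measured kinesins of cilia, 4 fell and 1 rose in each line. Beside them, 33.2% of all genes fell and 46.6% rose in Sf1-Cre, and 30.5% fell and 49.1% rose for Dhh-Cre. Kif27, a relative of Kif7 needed for motile cilia, had levels of 8.27, 7.39, 6.99 and 6.79 on the Sf1-Cre arrays, 6.10 and 6.51 on the arrays labelled Dhh-Cre, and 10.61 and 10.79 on the control arrays. It fell 10.1-fold in Sf1-Cre (limma adjusted p = 9.49e-05) and 21-fold for Dhh-Cre (limma adjusted p = 5.06e-05). Kif9, which acts in the beating of the mouse sperm tail, had levels of 8.05, 7.03, 6.51 and 6.16 on the Sf1-Cre arrays, 4.98 and 5.71 on the arrays labelled Dhh-Cre, and 10.11 and 10.29 on the control arrays. It fell 9.61-fold in Sf1-Cre (limma adjusted p = 0.000418) and 29-fold for Dhh-Cre (limma adjusted p = 0.000102). Kif24 and Kif6 fell by 1.62 and 0.88 on the log2 scale in Sf1-Cre and by 1.31 and 1.23 for Dhh-Cre. Kif7, the motor of Hedgehog signalling in the cilium, was the riser, with 0.51 ± 0.17 SE and 0.53 ± 0.20 SE, but it turned to -1.19 and -1.16 with housekeeping centring and to -0.35 and -0.33 with the housekeeping differences.

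**Figure D2:**
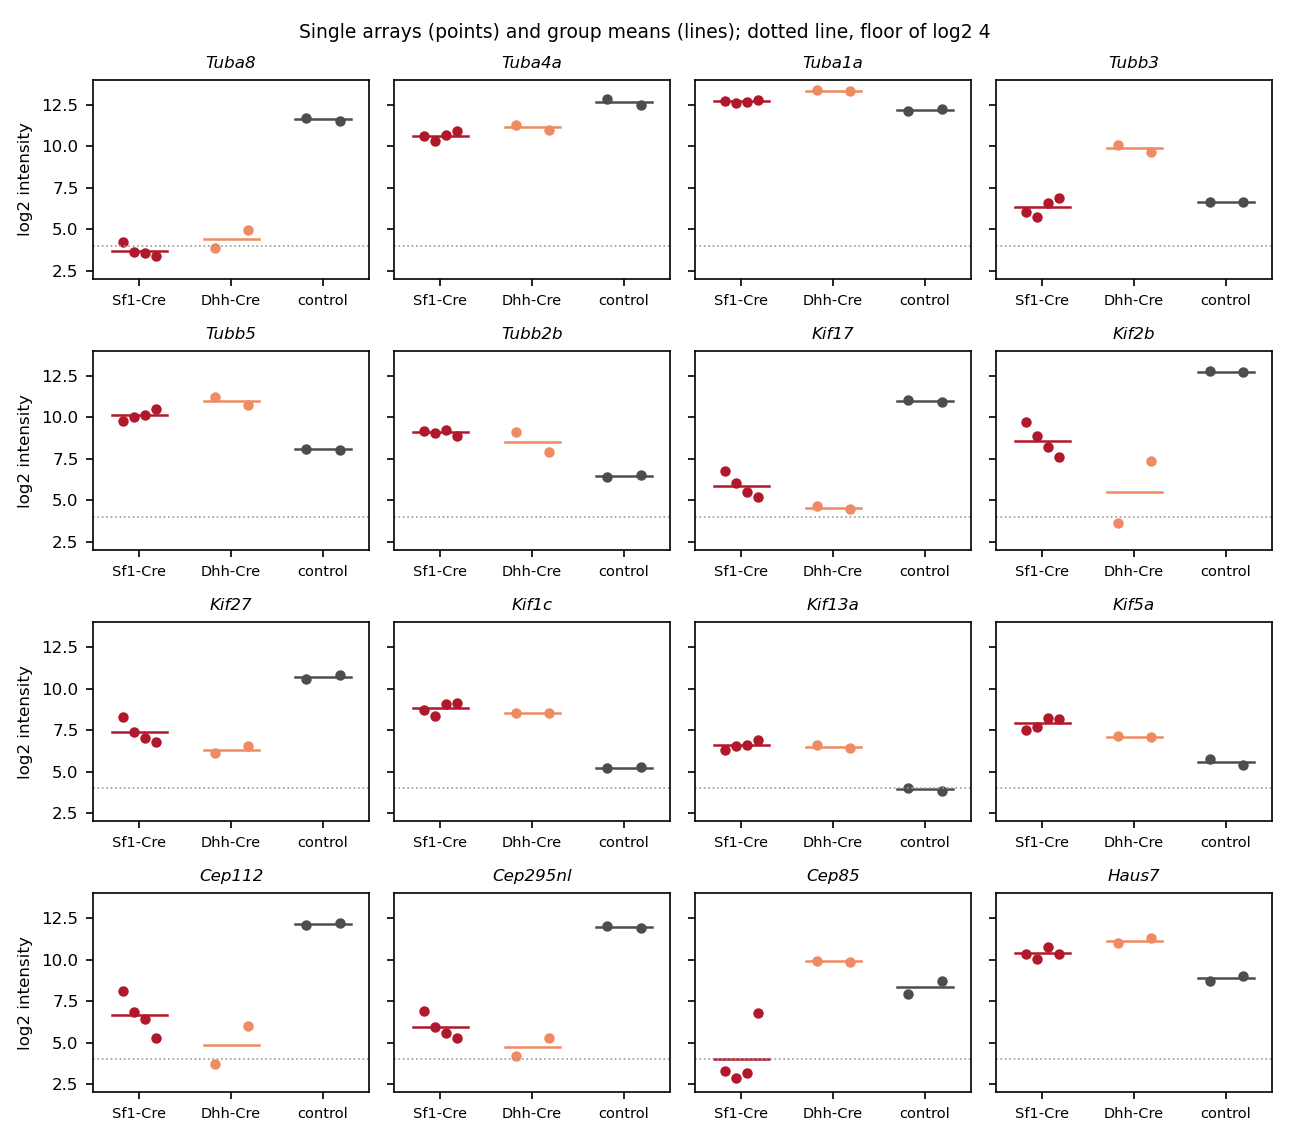
Log2 intensity of 16 members on every array, with Sf1-Cre, Dhh-Cre and control from left to right. Points are arrays, bars are group means and the dotted line is the floor of log2 4. Tuba8, Kif17, Kif2b, Kif27, Cep112 and Cep295nl lie far below the controls in both mutant groups, Kif1c and Kif13a lie above them, and Tubb3 is high only on the arrays labelled Dhh-Cre.

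Both mutant groups were set against the same 2 control arrays, so their calls are not independent. Side by side, 43 members passed as lower and 16 as higher in both, and 0 passed in opposite directions. Of all tested genes 0.0797% were higher in Sf1-Cre and lower for Dhh-Cre, and 0.913% the reverse, so that 0 is near the background. Sf1-Cre alone passed for 2 higher and 8 lower members, Dhh-Cre alone for 7 higher and 1 lower, and 15 passed in neither. In share, 46.7% of the members and 28.6% of all tested genes were lower in both, and 17.4% of the members and 43% of all genes were higher in both. Calls in 1 line alone were 2.17% of members against 3.58% of all genes for higher and 8.7% against 3.75% for lower in Sf1-Cre, and 7.61% against 5.26% for higher and 1.09% against 1.83% for lower for Dhh-Cre. Among the 43 members lower in both, 27 had the lower mean on the arrays labelled Dhh-Cre and 16 in Sf1-Cre. This split was not counted over all genes lower in both, so it cannot be called particular to the members.

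**Figure D3:**
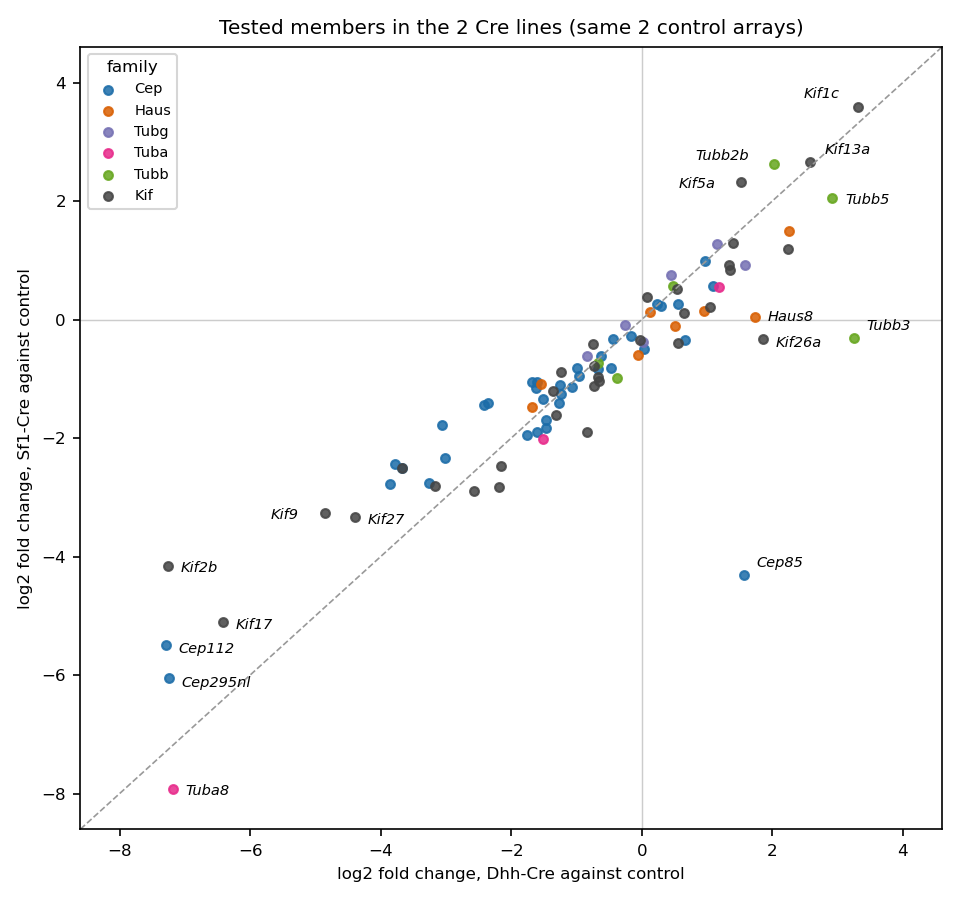
Each point is 1 of the 92 tested genes, with the log2 fold change against control in Sf1-Cre on the vertical axis and for the arrays labelled Dhh-Cre on the horizontal axis, coloured by family. The dashed line marks equal values. Tuba8, Cep295nl, Cep112, Kif17 and Kif2b lie at the lower left, Kif1c at the upper right, and Cep85, Tubb3, Kif26a and Haus8 stand off the line.

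The direct comparison of the lines does not use the controls except to estimate the spread. Of the 92 members, 8 were higher in Sf1-Cre than on the arrays labelled Dhh-Cre, 14 were lower and 70 did not pass, against 12.9% higher and 11.8% lower over all genes. These shares are near the background. Leaving out the 3 arrays with high Spink8, or Dhh-Cre 1 alone, leaves a single array labelled Dhh-Cre. Fewer members and fewer of all genes then passed in either direction. The median over the members was -0.09 without the 3 arrays and -0.05 without Dhh-Cre 1, beside 0.01 and 0.03 over all genes. Beside Tubb3 and Cep85, whose Sf1-Cre level is mostly under the floor, the values farthest below 0 were those of Kif26a (-2.19 ± 0.28 SE, limma adjusted p = 0.00203) and Haus8 (-1.69 ± 0.20 SE, limma adjusted p = 0.00133). In all 19 alternatives Tubb3 and Kif26a kept their calls. Each of the other 11 members followed through the alternatives lost its call in at least 2. Haus8, Kif1a, Kif4, Cep170b, Kif23, Kif21a, Cep128, Cep63 and Cep19 passed between the lines but were not followed through them.

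On the side higher in Sf1-Cre stood Kif2b (3.10 ± 0.95 SE, limma adjusted p = 0.04995), Kif9 (1.59 ± 0.49 SE, limma adjusted p = 0.0493), Cep126 (at least 2.08-fold higher in Sf1-Cre, its Dhh-Cre mean being under the floor, limma adjusted p = 0.0212) and Kif17 (1.30 ± 0.39 SE, limma adjusted p = 0.0466). Of the 8, all but Kif5a were members that had fallen in both lines, and they had fallen less in Sf1-Cre. Without Dhh-Cre 1 the Kif2b difference was 1.25 and did not pass (limma adjusted p = 0.308).

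**Figure D4:**
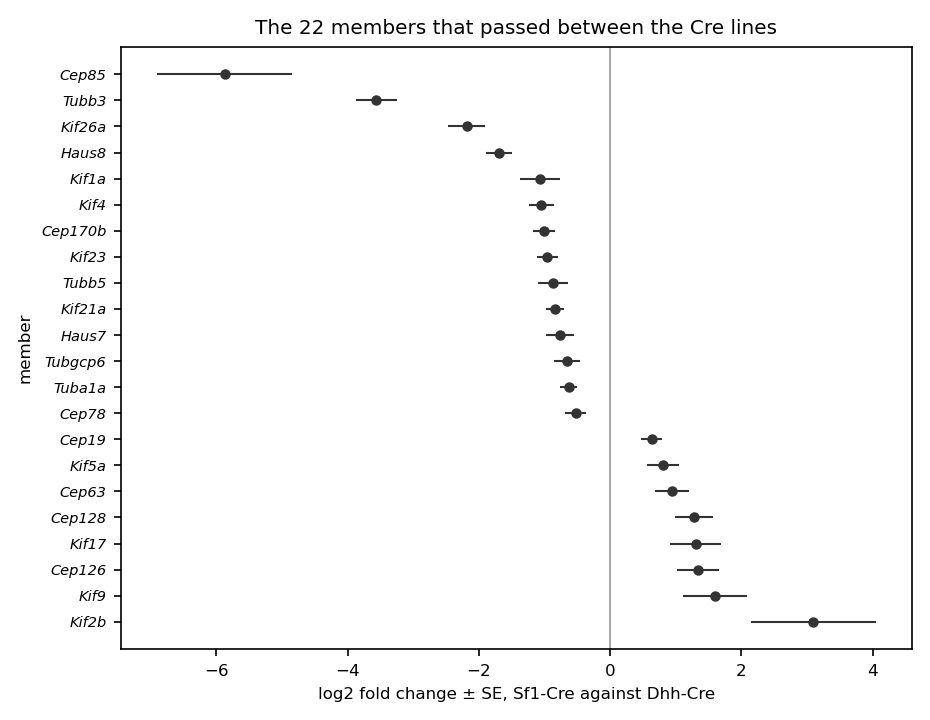
Log2 fold change with its standard error for the 22 members that passed in Sf1-Cre against Dhh-Cre, positive where Sf1-Cre was higher. Cep85, Tubb3 and Kif26a lie farthest below 0 and Kif2b, with the widest error on that side, farthest above.

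The 4 Sf1-Cre samples differed among themselves in a shared way. Among the 51 members that fell, Sf1-Cre 1 had the highest level of the 4 in 37 and Sf1-Cre 4 the lowest in 33. Among the 18 that rose, Sf1-Cre 1 was the lowest in 10, and Sf1-Cre 3 and Sf1-Cre 4 were the highest in 8 each. The median level of the fallen members was 8.08 on Sf1-Cre 1, 7.77 on Sf1-Cre 2, 7.63 on Sf1-Cre 3 and 7.35 on Sf1-Cre 4. The summed intensity of the spermatid markers on the same arrays was 13506, 7534, 5247 and 3529, and that of the spermatocyte markers 30507, 24931, 17999 and 15054.5. Sf1-Cre 1 was thus the highest and Sf1-Cre 4 the lowest in both marker lists as well. The part of these markers in the members' levels was not tested. Correlation with the array of control 2 was 0.881, 0.858, 0.839 and 0.824 for Sf1-Cre 1 to Sf1-Cre 4. With control 1 it fell in the same order. How often each array was highest or lowest was not counted over all genes. The order of the arrays therefore cannot be called particular to the members.

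Several probe sets could be compared for 43 members. In Sf1-Cre 27 of the 43 and for Dhh-Cre 33 of the 43 had probe sets that differed by more than 1 on the log2 scale or in sign. In Sf1-Cre 3 genes had probe sets that passed in opposite directions, 4 had signs that differed without both passing, 20 differed in size only and 16 were alike. For Dhh-Cre the counts were 3, 9, 21 and 10. The same counts were not made over all genes with several probe sets, so none of them can be called particular to the members. Haus2, Kif1b and Kif5c were the opposed genes in both lines, and which transcripts each probe set reads was not analysed here. Signs differed without both passing for Cep295, Cep350, Kif16b and Kif3a in Sf1-Cre. For Dhh-Cre this held for Cep162, Cep295, Cep350, Cep41, Cep85, Haus6, Kif22, Kif23 and Kif3a. Genes that differed in size only in both lines included Cep112, Cep57, Tuba4a, Tubb6, Kif20b, Kif2a and Kif3b. Among probe sets that reached log2 6, 1 gene was opposed in each line.

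For Kif1b, a motor of mitochondria and synaptic vesicle precursors, the used probe set had levels of 7.22, 7.21, 7.11 and 6.92 on the Sf1-Cre arrays, 7.54 and 7.34 on the arrays labelled Dhh-Cre, and 9.89 and 10.14 on the control arrays. It fell (-2.90 ± 0.16 SE in Sf1-Cre and -2.58 ± 0.19 SE for Dhh-Cre), while another probe set rose (1.97 ± 0.25 SE and 2.24 ± 0.28 SE), and 3 more rose in Sf1-Cre by 0.70 to 1.12. For Kif5c the used probe set rose (0.92 ± 0.17 SE and 1.34 ± 0.20 SE) and another fell (-3.27 ± 0.20 SE and -3.29 ± 0.23 SE). For Haus2 the used probe set did not pass (0.14 ± 0.37 SE and 0.95 ± 0.42 SE), another fell (-3.32 ± 0.26 SE and -3.89 ± 0.30 SE) and yet another rose (2.11 ± 0.34 SE and 1.82 ± 0.39 SE). A direction for these 3 genes thus holds for a probe set only.

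Kif2c, a shortener of microtubules at kinetochores, differed in size. Its used probe set, of the class that matches more than 1 sequence, gave -1.13 ± 0.27 SE in Sf1-Cre and -0.74 ± 0.31 SE for Dhh-Cre, while another probe set had levels of 6.24, 5.53, 5.35 and 5.12 on the Sf1-Cre arrays, 5.26 and 5.65 on the arrays labelled Dhh-Cre, and 11.30 and 11.19 on the control arrays and gave -5.68 ± 0.30 SE and -5.79 ± 0.34 SE. The brightest probe set thus gave the smallest difference of the 3 tested. Kif5b was higher with all 5 of its probe sets, by 1.29 to 2.48 in Sf1-Cre, where 1 of the 5 did not pass, and all 5 passed for Dhh-Cre. Cep350 was 0.26 ± 0.15 SE with the used probe set and -1.92 ± 0.46 SE with the other in Sf1-Cre, and Kif3a was lower with 2 of its 4 probe sets and not changed past the threshold with the others.

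**Figure D5:**
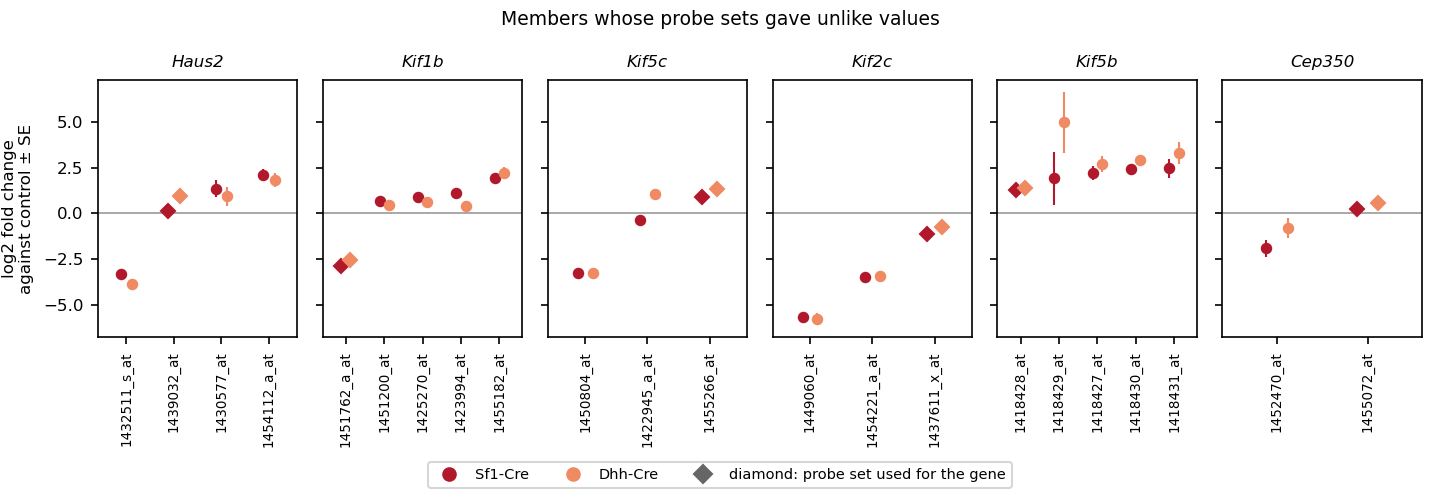
Log2 fold change with standard error for every tested probe set of 6 members, dark red for Sf1-Cre and orange for the arrays labelled Dhh-Cre, with diamonds for the probe set used. Haus2, Kif1b and Kif5c have points on both sides of 0, Kif2c has all points below it and Kif5b all above.

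Other genes of the microtubule system, 147 listed by role with 132 tested, gave 34 higher and 70 lower in Sf1-Cre (median -0.47), and 37 higher and 63 lower for Dhh-Cre (median -0.37). The background over all genes was 46.6% higher and 33.2% lower in Sf1-Cre, and 49.1% and 30.5% for Dhh-Cre. With the housekeeping differences 14 and 20 of the tested related genes passed as higher. Of 37 other centriole and centrosome genes, 25 fell and 7 rose in Sf1-Cre, and 22 fell and 7 rose for Dhh-Cre. Poc1b, a protein of the centriole wall, was -6.10 ± 0.44 SE and -6.48 ± 0.51 SE, while Nin, an anchor of microtubules at the mother centriole, was 3.46 ± 0.25 SE and 2.76 ± 0.29 SE. Of 29 genes of tubulin folding and modification, 15 fell in each line and 9 rose in Sf1-Cre and 8 for Dhh-Cre. Ttll11 and Ttll10, which add glutamates and glycines to tubulin, fell by 6.30 and 6.39 on the log2 scale in Sf1-Cre and by 5.89 and 6.12 for Dhh-Cre. Ttl, which puts tyrosine back on alpha-tubulin, rose by 3.61 and 3.41.

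Of 13 genes of the manchette and of the joint between head and tail, 11 fell and 2 rose in each line, with medians of -2.30 in Sf1-Cre and -3.91 for Dhh-Cre. In this list 8 genes were higher and 0 lower in Sf1-Cre than on the arrays labelled Dhh-Cre, against 12.9% of all genes higher. Without Dhh-Cre 1 the count higher was 4 of 13, against 3.76% of all genes. Of the 20 spermatid markers 7 were higher and 1 lower in Sf1-Cre than for Dhh-Cre, but 0 higher and 4 lower without Dhh-Cre 1, and their part in the manchette genes was not tested. Odf1, of the tail's outer dense fibres, is in the spermatid marker list as well. Of 20 tested genes of cytoplasmic dynein and dynactin, the motor that runs opposite to most kinesins, 7 rose and 6 fell in Sf1-Cre, and 7 rose and 3 fell for Dhh-Cre. In Sf1-Cre that was 35% and 30%, against 46.6% and 33.2% of all genes. For Dhh-Cre it was 35% and 15%, against 49.1% and 30.5%. Dynlrb1 was 2.56 ± 0.24 SE and 2.49 ± 0.28 SE, and its relative Dynlrb2, found in ciliated tissues, was -1.73 ± 0.59 SE and -4.05 ± 0.68 SE. Of 9 kinesin partners, 2 rose and 2 fell in Sf1-Cre, and 4 rose and 3 fell for Dhh-Cre: Klc3, the kinesin light chain of the sperm tail, was -4.32 ± 0.25 SE in Sf1-Cre, and Klc1, that of many tissues, 1.75 ± 0.24 SE. Of 25 tested genes of microtubule severing and binding, 8 rose and 11 fell in Sf1-Cre, and 10 rose and 9 fell for Dhh-Cre. Katnal1, a severing subunit needed in Sertoli cells of mice, was -2.98 ± 0.41 SE in Sf1-Cre, and Mapre2, which binds growing ends, 3.13 ± 0.18 SE.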

How the data were processed

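Testis RNA of 8 samples was labelled with biotin and hybridised to 1 array each. The deposited values are intensity values on a linear scale, made with GCRMA per the submitters' processing notes, with version and settings not given in the sources used here. This method corrects background with probe sequence, makes arrays alike by quantiles and combines the probes of a set. The log2 of the deposited intensities was taken here. Of 45101 probe sets, 34958 list 1 symbol (34754 matched by Entrez identifier to GRCm38.p6), 932 several and 9211 none in the annotation used.

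Group means were fitted by limma version 3.58.1 (R 4.3.3) to all 8 arrays, with 5 residual and 2.73 prior degrees of freedom, for 13802 genes with log2 4 or more on at least 2 arrays. The p-values, from 2-sided tests, were adjusted after Benjamini and Hochberg across the genes tested. Errors are standard errors, with n = 4 Sf1-Cre, 2 Dhh-Cre and 2 control arrays. A fold against a group mean under log2 4 is a lower bound against that floor. The number of arrays limits the precision. Probe sets were compared in a fit over 22539 tested probe sets. The members and gene lists were chosen with earlier results of these data known. Named members follow a rule: per family the largest rises and falls with no overlap of arrays in Sf1-Cre, the largest in the other comparisons, opposed probe sets, and a few fixed genes. Other members were named after their values were seen. The scripts were tested on simulated data. Alternatives changed 1 choice at a time. Plots used matplotlib 3.10.9 (Python 3.11.15).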

Additional observations from a re-analysis of the deposited data

Results flagged for a closer look

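The difference between the Cre lines passed limma's test (adjusted p under 0.05) for 22 members. The log2 fold change in Sf1-Cre against Dhh-Cre was below 0 for Cep85 (-5.88), Tubb3 (-3.56), Kif26a (-2.19), Haus8 (-1.69), Kif1a (-1.07), Kif4 (-1.05), Cep170b (-1.01), Kif23 (-0.96), Tubb5 (-0.87), Kif21a (-0.84), Haus7 (-0.76), Tubgcp6 (-0.66), Tuba1a (-0.63) and Cep78 (-0.53). It was above 0 for Kif2b (3.10), Kif9 (1.59), Cep126 (1.34), Kif17 (1.30), Cep128 (1.27), Cep63 (0.94), Kif5a (0.80) and Cep19 (0.63). All 6 mutant arrays were separated by line for each of them. Cep85 in 3 of the 4 Sf1-Cre samples, the Dhh-Cre mean of Cep126 and the Sf1-Cre mean of Kif1a lay under the floor of log2 4, so these 3 values depend on levels under it.

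Among the 4 Sf1-Cre samples, Cep85 in Sf1-Cre 4 had a log2 level of 6.81, far from the other 3, with a gap of 0.896 of the group's range (above Dixon's critical value). It was the only such sample among 92 members tested, where chance alone gives about 1 in 20 groups.

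Outside the members, a probe set that lists both Gm5620 and Tuba1b had a log2 fold change of 1.64 in Sf1-Cre against control (limma adjusted p = 1.445e-05).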

How the results depend on the processing

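The counts of members against control stayed within 1.5 times under quantile normalization, no filter, a filter at log2 6, values under log2 4 set to 4, the mean of all probe sets, trended robust moderation and a fit of only the 2 groups compared. Leaving out 1 array gave 15 to 19 higher and 45 to 54 lower in Sf1-Cre against control, 19 to 24 higher and 40 to 48 lower in Dhh-Cre against control, and 1 to 11 higher and 4 to 13 lower between the lines. There 3 were higher without control 1, 3 without control 2, 2 without Dhh-Cre 1 (4 lower), 3 without Dhh-Cre 2, 1 without Sf1-Cre 2 (9 lower) and 2 without Sf1-Cre 3. Between the lines, the count higher in Sf1-Cre was 4 with no filter, 4 with low values set to 4, 3 with only the 2 groups, 3 with housekeeping centring, 4 with housekeeping differences and 0 without the arrays with high Spink8, where 4 were lower. With an absolute log2 fold change of at least 1, 9 members were higher in Sf1-Cre against control, and 5 higher and 7 lower between the lines. With probe sets at log2 6 or above, 1 gene was opposed in each line. Between the lines, fewer of all genes passed as well without Dhh-Cre 1 and without the arrays with high Spink8. The cause was not tested.

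Housekeeping centring (13 of 16 listed genes) gave 4 higher and 83 lower members in Sf1-Cre and 4 and 75 for Dhh-Cre, with 2043 higher and 9424 lower over all genes in Sf1-Cre and 2014 and 8550 for Dhh-Cre. Related genes came to 7 higher and 114 lower in Sf1-Cre and 5 and 108 for Dhh-Cre. Shifting by the housekeeping genes' own differences, chosen after seeing the data, gave 6 higher in Sf1-Cre and 12 for Dhh-Cre, with 3759 higher and 6997 lower over all genes in Sf1-Cre and 4028 and 6111 for Dhh-Cre, and 14 and 20 related genes higher. The housekeeping genes' own median change was 0.78 in Sf1-Cre and 0.76 for Dhh-Cre. With centring, signs turned in Sf1-Cre for Cep68 -0.71, Cep78 -1.14, Haus2 -1.55, Haus7 -0.20, Kif11 -1.58, Kif5b -0.40, Kif5c -0.78, Tuba1a -1.15, Tubb2a -1.12, Tubgcp3 -0.42, Tubgcp5 -0.94 and Tubgcp6 -0.77, and for Dhh-Cre for Cep68 -0.73, Cep78 -0.61, Cep85 -0.13, Haus2 -0.75, Kif11 -1.04, Kif5a -0.17, Kif5b -0.29, Kif5c -0.36, Tuba1a -0.52, Tubb2a -1.22, Tubg1 -1.67, Tubgcp3 -0.54, Tubgcp5 -1.24 and Tubgcp6 -0.11. With the differences they turned in Sf1-Cre for Cep78 -0.31, Haus2 -0.72, Kif11 -0.75, Tuba1a -0.32, Tubb2a -0.29 and Tubgcp5 -0.11, and for Dhh-Cre for Kif11 -0.21, Tubb2a -0.38, Tubg1 -0.84 and Tubgcp5 -0.41.

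The mean of all probe sets turned Kif11 -0.15, Kif1b 0.37 and Kif5c -0.74 in Sf1-Cre, and Haus2 -0.046, Kif1b 0.32 and Kif5c -0.25 for Dhh-Cre. Quantile normalization turned Kif11 -0.11 in Sf1-Cre and Tubg1 -0.079 for Dhh-Cre. Without control 2, Haus2 -0.11 and Kif11 -0.27 turned in Sf1-Cre, and without Sf1-Cre 2, Haus2 -0.084 and Kif11 -0.037. For Dhh-Cre, Tubg1 -0.076 turned without control 1 and Tubg1 -0.24 without Dhh-Cre 1 or without the arrays with high Spink8. Over all arrays left out in turn, Haus2 in Sf1-Cre lay between -0.11 and 0.41, Kif11 in Sf1-Cre between -0.27 and 0.49, and Tubg1 for Dhh-Cre between -0.24 and 0.28.

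With the replicate number as a replicate block, 14 members were higher and 49 lower in Sf1-Cre, 23 and 46 for Dhh-Cre, and 10 and 11 between the lines. Deviations of same-numbered samples correlated at 0.02 and -0.14 (Sf1-Cre and control), 0.03 (Dhh-Cre and control) and -0.19 and 0.38 (Sf1-Cre and Dhh-Cre). No correlations of differently numbered samples were set beside them, so these values cannot decide whether same-numbered samples share more than the number.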

Other observations

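Probe sets that list several symbols were not part of the members. Those of Tuba3b and Tuba3a, alpha-tubulins of the testis, had log2 fold changes of -0.72 (limma adjusted p = 0.0528) and -0.75 (limma adjusted p = 0.0416) in Sf1-Cre, and -1.26 and -1.05 for Dhh-Cre. The probe set of Gm5620 and Tuba1b had log2 levels of 12.48, 12.51, 12.56 and 12.70 on the Sf1-Cre arrays, 12.83 and 12.76 on the arrays labelled Dhh-Cre, and 10.97 and 10.88 on the control arrays. It rose in both lines, by 1.64 in Sf1-Cre and 1.87 for Dhh-Cre. The brighter probe set of Gm6682 and Tuba1c gave -0.06 and 0.24 and did not pass. A probe set of Gm26555 and Kif27 fell by 4.72 and 5.81, as the probe set of Kif27 alone did.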
